A study of Mus musculus with 5 samples.

Results

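The loci of Runx1, Runx2 and Sox9, genes of transcription factors that govern skeletal cell fates, were examined for listed binding of p300 and c-Jun in mouse bone marrow stromal cells. A peak was taken as belonging to a locus when its centre lay in a fixed mm9 window: chr16:92550000-92900000 for Runx1 (350 kb), chr17:44580000-45000000 for Runx2 (420 kb) and chr11:112400000-112800000 for Sox9 (400 kb). These windows held 106 of the 83829 peaks in 4 deposited lists: 38 of p300 without pioglitazone and 29 with it, and 22 of c-Jun without and 17 with it.

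Chromatin immunoprecipitation and sequencing (ChIP-seq) used MS5, an established stromal cell line from mouse bone marrow, at passage 11. All 4 ChIP libraries came from cells exposed for 5 h to 10 ng/mL of TGF-β1, alone or together with 20 ng/mL of pioglitazone, and no ChIP sample without TGF-β1 was analysed here. Each combination of antibody and treatment was 1 library of 1 cell line, so every difference described here is between 2 libraries, has no replicate check and was not tested. The lists hold positions and no expression values, so the labelled cell type was not checked against its markers.

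As background, RUNX1 and RUNX2 bind DNA through the same type of domain, the Runt domain, with the partner CBFβ. RUNX2 is required for osteoblast differentiation, RUNX1 is best known for its role in blood cell formation and is also expressed in mesenchymal cells, and SOX9 is required for cartilage formation. p300 acetylates histones and serves as a coactivator at enhancers, c-Jun belongs to the AP-1 family of transcription factors, TGF-β1 is a cytokine that drives matrix production, and pioglitazone activates the nuclear receptor PPARγ.

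Promoter sequences of the genes were taken from RefSeq (build GRCm38.p6), which gave 2 start sites for Runx1, 1 for Runx2 and 0 for Sox9. They are shown because the Runx genes are the loci with many peaks and because the distal Runx1 start and the Runx2 start share a run of bases. The windows examined ran from 250 bases before to 50 bases after each start, and the part before the start is printed below, 5′ to 3′ on the minus strand. It spans chr16:92826075-92826324 for the distal Runx1 start and chr17:44814628-44814877 for Runx2. These GRCm38.p6 positions are on another scale than the mm9 positions of the peaks, and no peak was placed on a promoter. Capitals mark the core RUNX motif ACCACA, searched on both strands. The run shared by the Runx1 and Runx2 starts begins at base 24 after the Runx1 start and at base 19 after that of Runx2.
Runx1, before the distal start: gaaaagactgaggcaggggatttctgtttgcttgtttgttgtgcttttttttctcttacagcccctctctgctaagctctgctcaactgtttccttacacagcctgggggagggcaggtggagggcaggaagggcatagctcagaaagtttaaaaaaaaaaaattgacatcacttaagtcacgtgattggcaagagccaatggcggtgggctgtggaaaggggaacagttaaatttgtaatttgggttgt
Runx2, before the start: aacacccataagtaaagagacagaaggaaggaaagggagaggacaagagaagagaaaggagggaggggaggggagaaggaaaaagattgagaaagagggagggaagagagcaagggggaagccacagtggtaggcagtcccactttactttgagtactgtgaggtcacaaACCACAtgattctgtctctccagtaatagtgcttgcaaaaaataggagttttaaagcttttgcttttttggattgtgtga
Runx1 and Runx2, shared run: aaacaACCACAgaACCACAagt

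The shared run is 22 bases long and holds the RUNX core 2 times, and 2 of the 32851 RefSeq promoter windows contained it, those of Runx1 and Runx2. It was sought as the longest run that these windows share, so at least 2 windows had to hold it. The Runx2 window held the RUNX core at 3 places in all and the distal Runx1 window at 2, and 1.81% of all 300-base windows held it at 2 or more. The proximal Runx1 window held 0. The AP-1 motif TGANTCA, found in 7.81% of all windows on either strand, had no match in these 3 windows, which says only that those letters are not there.

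The Runx1 and Runx2 windows were dense in peaks and the Sox9 window nearly empty. Runx1 held 19 p300 peaks without pioglitazone and 15 with it, and 10 and 9 c-Jun peaks. For Runx2 the numbers were 18 and 14 for p300, and 11 and 8 for c-Jun. Sox9 held 1 p300 and 1 c-Jun peak without pioglitazone, and 0 of either with it. The density of p300 peaks without pioglitazone was 54.3 per Mb at Runx1, 42.9 at Runx2 and 2.5 at Sox9, against 12.3 per Mb over the listed span of the genome. For c-Jun without pioglitazone it was 28.6, 26.2 and 2.5 per Mb, against 6.65.

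**Figure D1:**
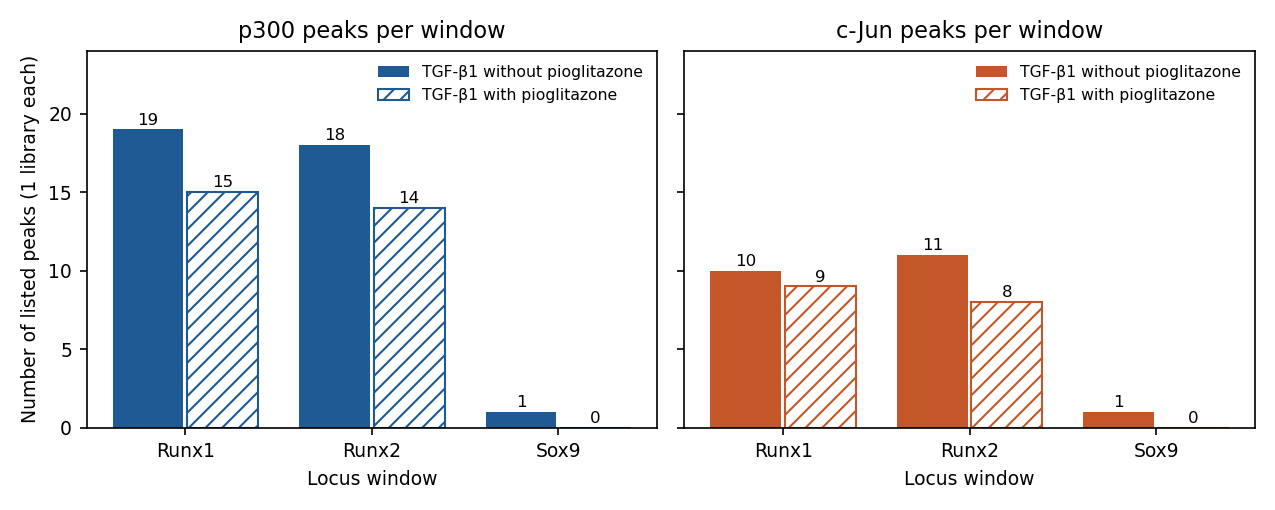
Number of listed p300 peaks (left) and c-Jun peaks (right) in the Runx1, Runx2 and Sox9 windows, each bar 1 library, filled without and hatched with pioglitazone. The Runx windows held between 8 and 19 peaks per list, and Sox9 1 or 0.

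When the genome was divided into 7336 consecutive windows of 350 kb, 1.17% held at least as many p300 peaks without pioglitazone as Runx1, and 2.43% at least as many c-Jun peaks. The median such window had 3 p300 peaks and 1 c-Jun peak. For Runx2, among 6119 windows of 420 kb, the shares were 3.55% for p300 and 3.02% for c-Jun. For Sox9, 71.1% of 6426 windows of 400 kb held at least its 1 p300 peak without pioglitazone, and 62.3% at least its 1 c-Jun peak. Windows of this size without any p300 peak, as at Sox9 with pioglitazone, made up 34.2% of the 6426 windows in that list.

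The fall in listed peaks at the Runx loci was near that of the lists as a whole. With pioglitazone the p300 count was 78.9% of the count without it at Runx1 and 77.8% at Runx2, and the whole p300 list was 69.9% as long. For c-Jun the count was 90% at Runx1 and 72.7% at Runx2, against 78.2% for the whole list. When the longer list of each antibody was shortened from its end to equal length, p300 numbered 16 and 15 at Runx1 and 16 and 14 at Runx2. At that length c-Jun numbered 7 without and 9 with pioglitazone at Runx1, which turns the direction, and 9 and 8 at Runx2. Only the lists without pioglitazone were cut here, which could lower their counts but not those with pioglitazone. In the upper 50% of the rows of every list, p300 numbered 14 without and 5 with pioglitazone at Runx2, and 14 and 10 at Runx1. c-Jun at Runx1 numbered 5 and 7 there, again higher with pioglitazone. Taking 50% of every list leaves the whole-list ratios as they were, 69.9% for p300 and 78.2% for c-Jun.

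In the Runx windows, with the lists uncut, between 61.1% and 70% of the peaks listed without pioglitazone were also listed with it. Here, a retained peak is listed without pioglitazone and overlaps, by at least 1 bp, a peak of that antibody with pioglitazone. A lost peak is listed without pioglitazone and has no such partner, and a gained peak is listed with pioglitazone and has none without it. The terms refer to membership of the lists, not to measured binding. At Runx1, 12 of 19 p300 peaks were retained, 63.2% (exact 95% interval 38.4 to 83.7), and at Runx2 11 of 18, 61.1% (35.7 to 82.7). With every list limited to the upper 50% of its rows, 5 of 14 p300 peaks of Runx2 were retained, 35.7%, and 9 of 14 of Runx1, 64.3%. No share over all p300 peaks was computed under that limit, which also drops partners in the lower 50% of the rows with pioglitazone. When a partner could stand anywhere in the list with pioglitazone, 9 of these 14 peaks were retained at Runx2, 64.3%. At Runx1 it was 12 of 14, 85.7%, and over the upper 50% of the whole p300 list 74.5%. With the lists uncut, the share over the whole p300 list was 51.1%. Of c-Jun peaks, 7 of 10 were retained at Runx1, 70% (34.8 to 93.3), and 7 of 11 at Runx2, 63.6% (30.8 to 89.1), against 45.7% over the whole list. The whole-list shares lie inside these 4 intervals, which cover counting error only.

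Gained p300 peaks numbered 3 of 15 at Runx1 and 3 of 14 at Runx2, or 20% and 21.4%, and 26.9% of the whole p300 list with pioglitazone was gained. Gained c-Jun peaks numbered 2 of 9 at Runx1 and 1 of 8 at Runx2, against 41.6% over the list. At Sox9 the p300 peak and the c-Jun peak were both lost, as were 48.9% of all p300 and 54.3% of all c-Jun peaks without pioglitazone.

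**Figure D2:**
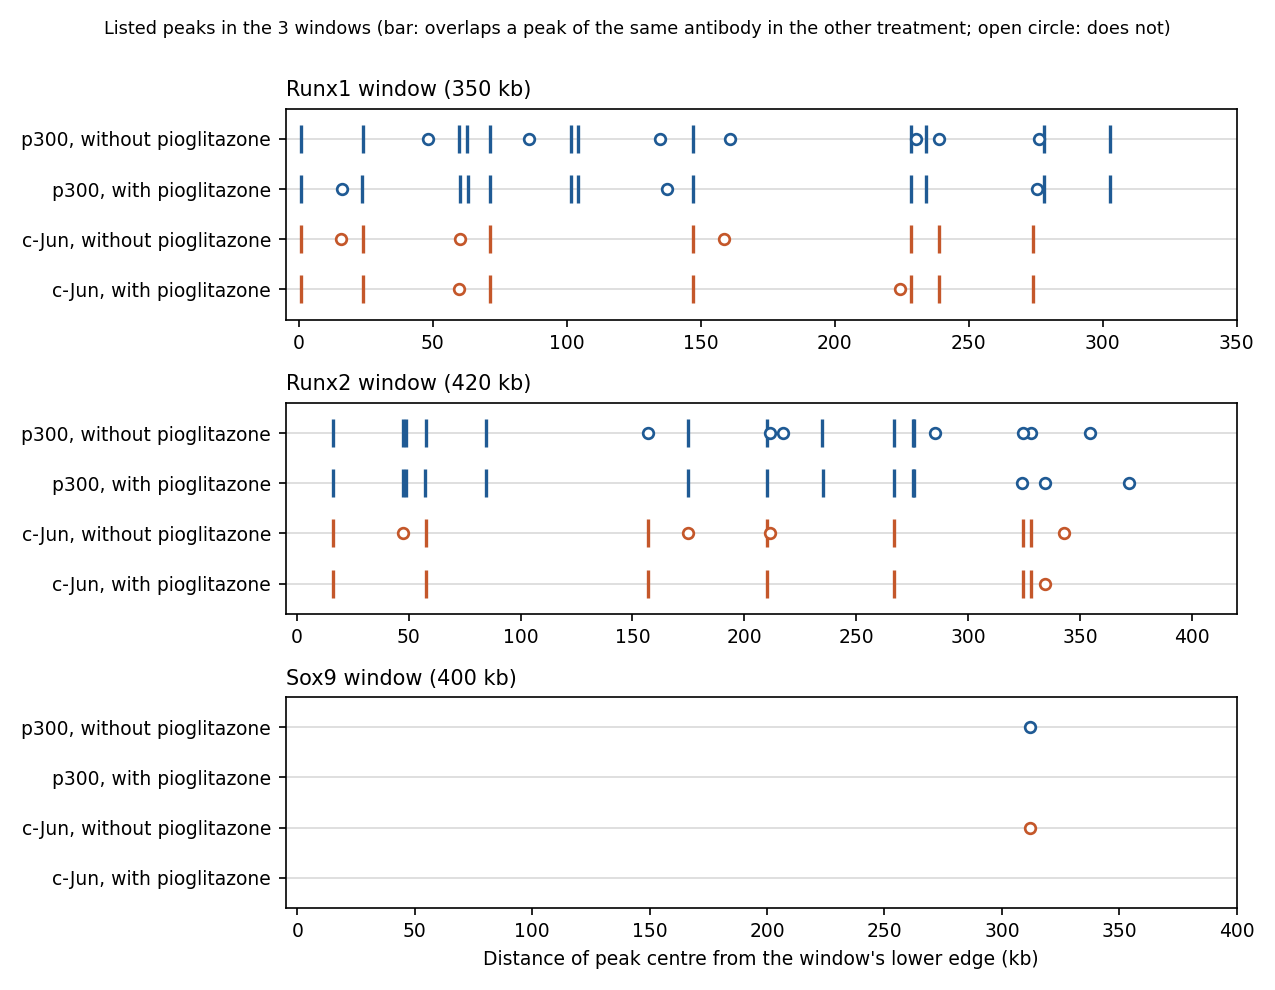
Position of each listed peak in the Runx1, Runx2 and Sox9 windows, as the distance of its centre from the window's lower edge in kb, with 1 line per library. Bars overlap a peak of the same antibody in the other treatment and open circles do not; of the 19 p300 peaks at Runx1 without pioglitazone, 7 are circles, and both Sox9 peaks are.

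Peaks of the 4 lists that overlapped were joined into 49 merged sites, 26 at Runx1, 22 at Runx2 and 1 at Sox9. Of these, 10 were in all 4 lists, 20.4%, against 12.9% of the 44718 merged sites of the genome. They were 6 at Runx1 and 4 at Runx2. The most frequent pattern was p300 in both treatments with no c-Jun, at 11 sites, 22.4%, against 13.4% of all merged sites. Sites in the p300 list without pioglitazone alone numbered 9, 18.4%, against 25.7% of all sites, and sites in the p300 list with it alone 5, 10.2%, against 10.6%. c-Jun without p300 in any list was seen at 5 sites, 4 of them at Runx1. Of these, 3 were in the c-Jun list without pioglitazone alone, 6.12% of the merged sites of the loci, against 8.06% of all sites. The list with pioglitazone alone held 1, 2.04% against 6.93%, and both c-Jun lists held 1, 2.04% against 1.73%.

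**Figure D3:**
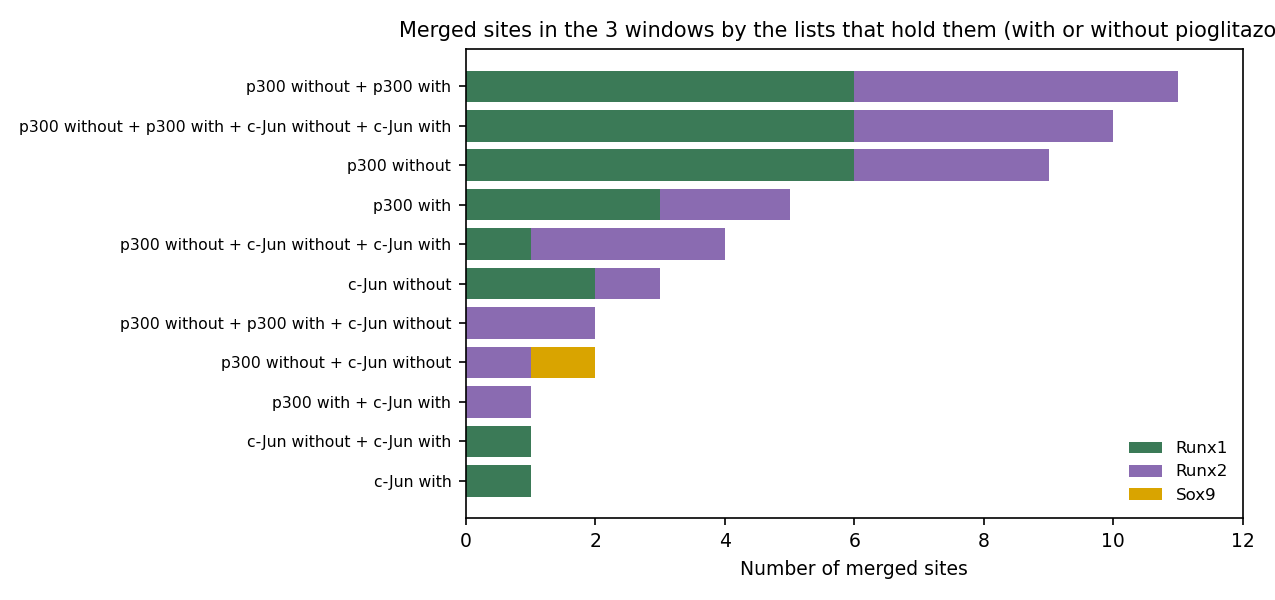
Number of merged sites (horizontal axis) at Runx1, Runx2 and Sox9 for each combination of the 4 lists that holds them (vertical axis, named by antibody and by treatment with or without pioglitazone). The longest bars are p300 in both treatments with no c-Jun, 11 sites, and all 4 lists, 10 sites. Over all merged sites of the genome these patterns made up 13.4% and 12.9%.

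At Runx1 the same site led the window in every list. It lay at chr16:92621039-92621357, 71.2 kb into the window. Its p300 peak stood at position 925 of 31466 without and 282 of 21994 with pioglitazone, and its c-Jun peak at 482 of 17044 and 360 of 13325. Every row has the same score, and the order of the rows was taken to stand in for strength within a list. No source used here states what the rows were sorted by, so each position, and each value for the upper rows or for equal list lengths, rests on that assumption. Since the lists differ in length, positions show no change between treatments. After it, the retained p300 peak nearest the top without pioglitazone was at chr16:92612818-92613082 (position 2082, and 2188 with it), a site with no c-Jun in either list. The second retained c-Jun peak was at chr16:92823851-92824146 (positions 3884 without and 4875 with pioglitazone), where p300 was in neither list.

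The other sites of Runx1 in all 4 lists were spread over the window, at chr16:92550541-92550816, 92573485-92573969, 92609663-92610203, 92696853-92697187 and 92778323-92778645. Their p300 peaks stood within 7.75% to 12.2% of the rows from the top without pioglitazone and within 7.2% to 16.5% with it. c-Jun stood lower in its own lists at these sites, from 25.4% to 75.3% without and from 20.8% to 42% with pioglitazone. At 92609663-92610203 the 2 c-Jun peaks did not overlap each other, with centres 299 bp apart, and were joined through p300. They therefore count as the first lost c-Jun peak of Runx1 (position 5752) and the first gained (position 3416). The site at 92550541 has its centre 0.7 kb inside the window's edge.

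Lost p300 peaks at Runx1 stood lower than these sites. The first was at chr16:92780281-92780527, position 6470, and the closest p300 peak listed with pioglitazone lay 1874 bp away, between centres. The next was at chr16:92826124-92826370, position 11354, and 994 bp from it lay the gained p300 peak nearest the top, at 92825140-92825366 (position 8046 with pioglitazone). The second gained p300 peak, at 92565895-92566121, stood at position 20702 of 21994, and the second lost c-Jun peak, at 92565527-92565775, at 16515 of 17044. The second gained c-Jun peak was at 92774114-92774348, position 12734 of 13325. All 12 retained p300 peaks of Runx1 lay in the upper 50% of the list without pioglitazone, where 14 of its 19 peaks stood, and 0 of the 5 in the lower 50% were retained. Over the whole p300 list 74.5% of the upper and 27.7% of the lower 50% were retained.

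Runx2 held the highest-placed peaks of the 3 loci in the lists without pioglitazone. Its p300 peak at chr17:44846886-44847155 stood at position 246 of 31466 without and 454 of 21994 with pioglitazone, and c-Jun there at 502 of 17044 and 879 of 13325. At chr17:44637415-44637704 p300 stood at positions 353 and 363, and c-Jun at 353 and 447. These 2 sites lie 267 kb and 57.6 kb into the window and were the first 2 retained sites of Runx2 for both antibodies. Both were in all 4 lists, as were chr17:44790155-44790443 (p300 at 1119 and 816, c-Jun at 1687 and 2776) and chr17:44596048-44596341. The last stood low in every list, from 54.5% of the rows for p300 without pioglitazone to 81.6% for c-Jun without it.

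Runx2 had 1 site that lost both factors and 1 that gained both. At chr17:44791400-44791681, 211.5 kb into the window and beside the retained site at 44790155, p300 (position 3134) and c-Jun (position 3149) were both listed without and not with pioglitazone. They were the first lost peaks of either antibody at this locus, and the nearest peaks of the other treatment lay 1290 bp away for p300 and 1198 bp away for c-Jun. At chr17:44914327-44914656 the reverse held, with p300 at position 12241 and c-Jun at 5859 with pioglitazone and neither without it. It was the gained c-Jun peak of Runx2 and its first gained p300 peak. The same pattern, both factors with pioglitazone alone, was held by 0.7% of all merged sites, and both without it alone by 4.22%.

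At 3 sites of Runx2 c-Jun was in both lists and p300 in the list without pioglitazone alone, and 1 site of Runx1 had this pattern. Together they were 8.16% of the merged sites of the 3 loci, against 2.44% of all merged sites. The first, chr17:44736862-44737162, holds the second lost p300 peak of Runx2 (position 7879), with c-Jun at 13911 and 6702. The others, picked out after their values were seen, were at chr17:44904376-44904690, chr17:44907854-44908142 and, for Runx1, chr16:92788799-92789129. At the first of these the lost p300 peak had a gained p300 peak 336 bp away, at 44904050-44904276 (position 18815), so p300 was listed beside the site with pioglitazone. The nearest p300 peak with pioglitazone was 3814 bp away at 44907854 and 4832 bp away at the Runx1 site. The second lost c-Jun peak of Runx2, at chr17:44922895-44923143 (position 6716), had no p300 in either list.

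**Figure D4:**
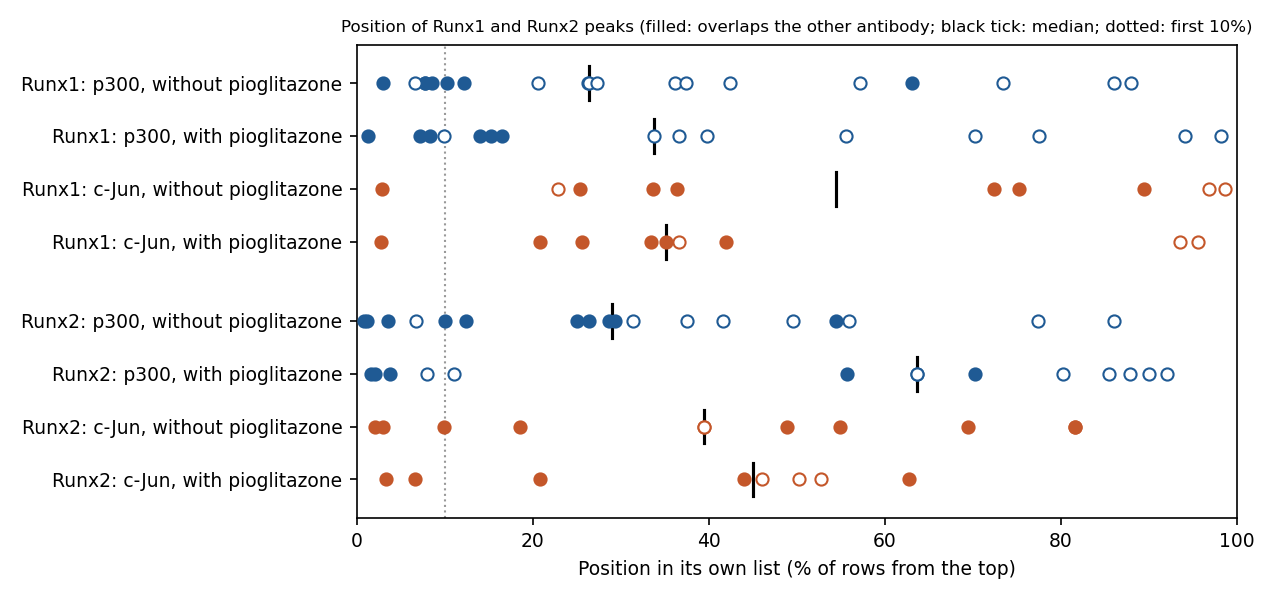
Position of every Runx1 and Runx2 peak in its own list, as the percent of rows from the top, with 1 line per locus and library; filled points overlap a peak of the other antibody in the same treatment, black ticks are medians and the dotted line marks the first 10%. Runx2 p300 peaks lay mostly in the upper part of the list without pioglitazone (median 29%), and with it the median was 63.7%. Since the lists differ in length and their sorting is not stated, these medians show no change between treatments.

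The first 10% of rows of the p300 lists held 5 of 19 p300 peaks of Runx1 and 5 of 18 of Runx2 without pioglitazone, and 4 of 15 and 4 of 14 with it. Any list has 10% of its rows there, and the 3 loci together had 26.3% and 27.6%. Of the c-Jun peaks, 4 of 22 (18.2%) without and 3 of 17 (17.6%) with pioglitazone were in the first 10%. The median p300 peak of Runx1 stood at 26.4% of the rows without pioglitazone and at 33.8% with it, and that of Runx2 at 29% and 63.7%. For c-Jun the medians were 54.4% and 35.1% at Runx1 and 39.4% and 45% at Runx2.

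Between 5 and 10 c-Jun peaks per list overlapped p300 at each Runx locus. Without pioglitazone 7 of 10 c-Jun peaks of Runx1 did, 70% (34.8 to 93.3), and 10 of 11 of Runx2, 90.9% (58.7 to 99.8), against 69.4% of all c-Jun peaks. With pioglitazone the counts were 6 of 9, 66.7% (29.9 to 92.5), and 5 of 8, 62.5% (24.5 to 91.5), against 55.5%. When the overlap had to cover at least 50% of both peaks, 4 of 9 did at Runx1 with pioglitazone, 44.4%. Over the whole c-Jun list with pioglitazone, 6323 of 13325 did under that rule, against 7400 with at least 1 bp. Seen from p300, 36.8% of Runx1 peaks (16.3 to 61.6) and 55.6% of Runx2 peaks (30.8 to 78.5) overlapped c-Jun without pioglitazone, against 37.6% of all p300 peaks. With it the shares were 40% (16.3 to 67.7) and 35.7% (12.8 to 64.9), against 33.7%. The intervals of both loci overlap and contain the whole-list shares.

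At Runx1, 6 of the 7 p300 peaks shared with c-Jun in the absence of pioglitazone were retained and 6 of the 12 not shared, and at Runx2 6 of 10 and 5 of 8. Over the whole p300 list 74.1% and 37.2% were retained. For Runx2 the shares, 60% and 62.5%, were close to each other, on 18 peaks. Of c-Jun peaks that overlapped p300, 6 of 7 at Runx1 and 7 of 10 at Runx2 were retained, against 56.3% over the list. Of those that did not, 1 of 3 and 0 of 1 were, against 21.5%.

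With neighbouring peak centres joined when no more than 12500 bp apart, Runx1 had 9 domains, of which 3 held 1 merged site, and Runx2 had 10, of which 6 did. Whether this spacing is closer than so many sites would give by themselves was not tested. The largest of Runx1 by peaks were at chr16:92597855-92621357 (23.5 kb, which includes the leading site) and chr16:92774114-92789129 (15 kb), with 11 peaks each over the 4 lists. At Runx2 the domain chr17:44904050-44934685 (30.6 kb) had 11 peaks, 3 and 2 of p300 and 3 and 3 of c-Jun without and with pioglitazone. The domains chr17:44627286-44637704 and chr17:44846886-44865079, which hold its 2 leading sites, had 9 peaks each, and p300 numbered 3 and 3 in the former and 4 and 3 in the latter. The widest gap between neighbouring sites was 63.5 kb at Runx1 and 72.5 kb at Runx2.

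At Sox9 the listed site was chr11:112711908-112712172, 312 kb into the window, with the centres of its p300 and c-Jun peaks 17 bp apart. The p300 peak stood at position 14167 of 31466, 45% of the rows from the top, and the c-Jun peak at 17008 of 17044, among the last rows of its list. The c-Jun peak is therefore absent from that list at equal lengths and in its upper 50%. Nearby peaks lay outside the window. Toward lower coordinates, 377 kb from the site, p300 and c-Jun were in all 4 lists, p300 at chr11:112334665-112334911 without (position 3498) and at 112334691-112334917 with pioglitazone (position 4377). Toward higher coordinates the next p300 peak was 150 kb away without and 210 kb away with pioglitazone, at chr11:112862407-112862653 and chr11:112922350-112922576. c-Jun was listed in both treatments within that last region. With each window widened by 50 kb on both sides, the Sox9 counts were the same.

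No mm9 annotation was used here, so it is not stated whether a peak lies in an exon, an intron or between genes. In the RefSeq gene table of GRCm38.p6 the neighbouring protein-coding genes are Clic6 and Setd4 for Runx1 and Clic5 for Runx2, whose span overlaps that of Supt3. A peak of the Runx2 window may thus lie in or near another gene.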

How the data were processed

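ChIP-seq peaks were deposited as 1 list for each of 4 libraries; no file of the pooled input was used. The submitters' processing notes name HOMER, SAMtools 1.9, Bowtie2 2.3.4.3 and build mm9. Their settings, the peak thresholds and any use of the input were not given in the sources used here. The deposited score is 1 in every row, so peaks carry no height or p-value, and sequencing depth is unknown. Peaks have 1 width per list (247, 227, 249 and 235 bp).

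Positions are counted from 1. Overlaps of at least 1 bp were computed in Python (version 3.11.15, numpy 2.4.6, pandas 2.3.3, scipy 1.17.1), tested on simulated data, and in 24 of 24 comparisons equalled those of bedtools (version 2.31.1). Shares carry exact Clopper-Pearson 95% intervals. With 1 library per group no test was run. Loci and site lists were chosen with earlier results of these data known. Sites are named by rule: those in all 4 lists, each list's first peak, and the first 2 retained, lost and gained per locus and antibody. Other skeletal genes were not examined, since this needs mm9 annotation. Alternatives were stricter lists, equal list lengths, other overlaps and other window limits.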

Additional observations from a re-analysis of the deposited data

Results flagged for a closer look

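In 2 domains of the Runx1 window p300 and c-Jun went opposite ways in the number of peaks listed. In the domain chr16:92774114-92789129 p300 peaks fell by 2, from 4 without to 2 with pioglitazone, and c-Jun peaks rose by 1, from 2 to 3. At equal list lengths, an alternative chosen after the values were seen, p300 still went from 4 to 2 and c-Jun from 1 to 3. That alternative shortens only the lists without pioglitazone, so it could not make the c-Jun rise smaller. The gained c-Jun peak of this domain stood at position 12734 of 13325, among the last rows of its list. In the domain chr16:92565527-92573969 p300 peaks rose by 1, from 1 to 2, and c-Jun peaks fell by 1, from 2 to 1. The peaks behind both moves stood among the last rows of their lists, p300 at position 20702 of 21994 and c-Jun at 16515 of 17044. At equal list lengths c-Jun numbered 1 in both treatments, and the opposite movement was gone. With 1 library per group, neither difference was tested. Both counts also differed in the domains chr16:92684717-92710778 and chr17:44790155-44797312 and at the Sox9 site, and there both antibodies fell together. Of the 4702 domains of the genome in which the counts of both antibodies differed between treatments, 37% moved in opposite directions. The opposite moves at Runx1 are thus of a kind frequent among such domains.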

How the results depend on the processing

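Of 127 values recomputed under other settings, 110 stayed within 1.5 times the main count or within the main share's interval, 15 moved further and 2 reversed. Only changes between treatments could reverse, since a count or a share has no sign to turn. Counts with pioglitazone could not change at equal list lengths, nor the Sox9 counts of 0 in the upper 50%. These values are among the 110 all the same. The intervals are wide: with an overlap of at least 50% of both peaks, the share of c-Jun peaks of Runx1 with p300, with pioglitazone, went from 66.7% to 44.4% and still counts as within. Over the whole list the same rule took the count from 7400 to 6323 of 13325 peaks. Other window limits moved no value that far. In the upper 50% of the rows of every list, c-Jun peaks numbered 5 without pioglitazone at Runx1, 7 without and 5 with it at Runx2 and 0 without it at Sox9, and p300 peaks with pioglitazone 5 at Runx2, where the p300 retained share was 35.7%. In those rows and at equal list lengths, the change in c-Jun peaks at Runx1 turned from a fall of 1 to a rise of 2, and at Sox9 it was 0, since the c-Jun peak without pioglitazone stood among the last rows (0 peaks at equal lengths). Fewer rows were used under both settings. Equal lengths cut only the lists without pioglitazone, so a fall could there only stay, shrink or turn. At Runx2 the change in p300 peaks was -9 in the upper 50% and -2 at equal lengths, against -4. At Runx1 it was -4 and -1, against -4. For c-Jun at Runx2 it was -2 and -1, against -3. No paired analysis was possible because each antibody and treatment was 1 library. No share was recomputed for c-Jun at Sox9 where no peak was left. Unknown depth and 1 library per group limit every comparison of counts.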
